A study of Mus musculus with 41 samples.

Results

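Type 2 macrophage and chitinase-like genes were followed in the lung and liver of mice that had inhaled nanosized titanium dioxide (nanoTiO2). The set held 7 genes, Arg1, Retnla, Chi3l1, Chi3l3, Chia, Mrc1 and Ear11, and every spot on the arrays whose gene name was one of these was taken. They had 9 of the 41174 probes and 7 of the 27962 gene names on the array, with 2 probes each for Retnla and Chia and 1 spot per probe on each array. All 9 probes entered the tests in both tissues.

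Exposed mice breathed 40 mg nanoTiO2/m3 for 1 h a day on 11 days, and control mice breathed filtered air on the same schedule. Both groups were killed 5 days after the last session. Lung RNA came from 7 exposed and 6 control mice and liver RNA from 7 exposed and 8 control mice, of which 6 exposed and 6 control mice gave both organs. All were adult female C57BL/6 mice (C57BL/6BomTac in the study's methods) that had been time-mated and had not conceived, and the labels put all of them at an age equivalent to GD4. The study has the pregnant mice exposed from a later gestational day, so what the labelled age refers to is unclear. The particle was UV-Titan L181, a rutile material with a polyalcohol coating, so neither uncoated particles nor another dose or time was sampled, and each RNA was from part of an organ with all of its cell types mixed.

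The genes belong to a programme that macrophages switch on in type 2 immunity. The cytokines IL-4 and IL-13 bind the IL-4 receptor, activate the transcription factor STAT6, and raise genes of arginine use, carbohydrate binding and tissue repair. In the lung the same products are also made by other cells, since resident alveolar macrophages secrete the chitinase-like protein Ym1 (Chi3l3), airway epithelium secretes acidic chitinase (Chia), and alveolar macrophages and eosinophils make the ribonucleases of the Ear family.

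Each array compared 1 mouse, labelled with Cy5 (red), with a common reference RNA from cultured mouse cell lines, labelled with Cy3 (green). The value of a probe is therefore the log2 ratio of Cy5 to Cy3, and a difference between groups is on that scale. Between 55.1% and 70.5% of the spots on an array were well above background in the Cy5 channel, and 1066 to 2048 of 43379 spots per array carried the scanner software's outlier marks and were left out. The labelled tissues were borne out by their markers, since the surfactant gene Sftpc was higher in control lung by 4.98 and the Kupffer cell lectin Clec4f differed by -5.35 on the log2 scale, higher in control liver. Lung and liver arrays lay on different slides and were read with different versions of the scanner software, so tissue and these steps cannot be told apart, and exposed mice were at other slide positions than control mice in every block.

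In the lung, Ear11 fell with exposure and no other member passed the test on the ratios. Ear11 encodes an eosinophil-associated ribonuclease, and its ratio was 1.37-fold lower in exposed mice. The mean change of the remaining 8 probes lay between -0.18 and 0.59 on the log2 scale, with the resistin-like gene Retnla at the upper end. So 1 of 9 member probes was called at an adjusted p under 0.05 in limma, beside 83 of 41105 probes (0.202%) over the whole array and 9 (0.0219%) in the downward direction. At an unadjusted p under 0.05, 2928 probes (7.12%) passed, and so did 3 of the 9 member probes. These were the Ear11 probe and both Retnla probes, which overlap in sequence and are no independent measures. By gene, 1 of 7 was higher and 1 lower at that level. The median log2 difference was -0.07 over the 7 genes and 0.0015 over all probes. The chitinase-like gene Chi3l1 did not pass the test on the ratio, but both channels of its probe were higher on the arrays of exposed mice, as described with that gene.

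**Figure D1:**
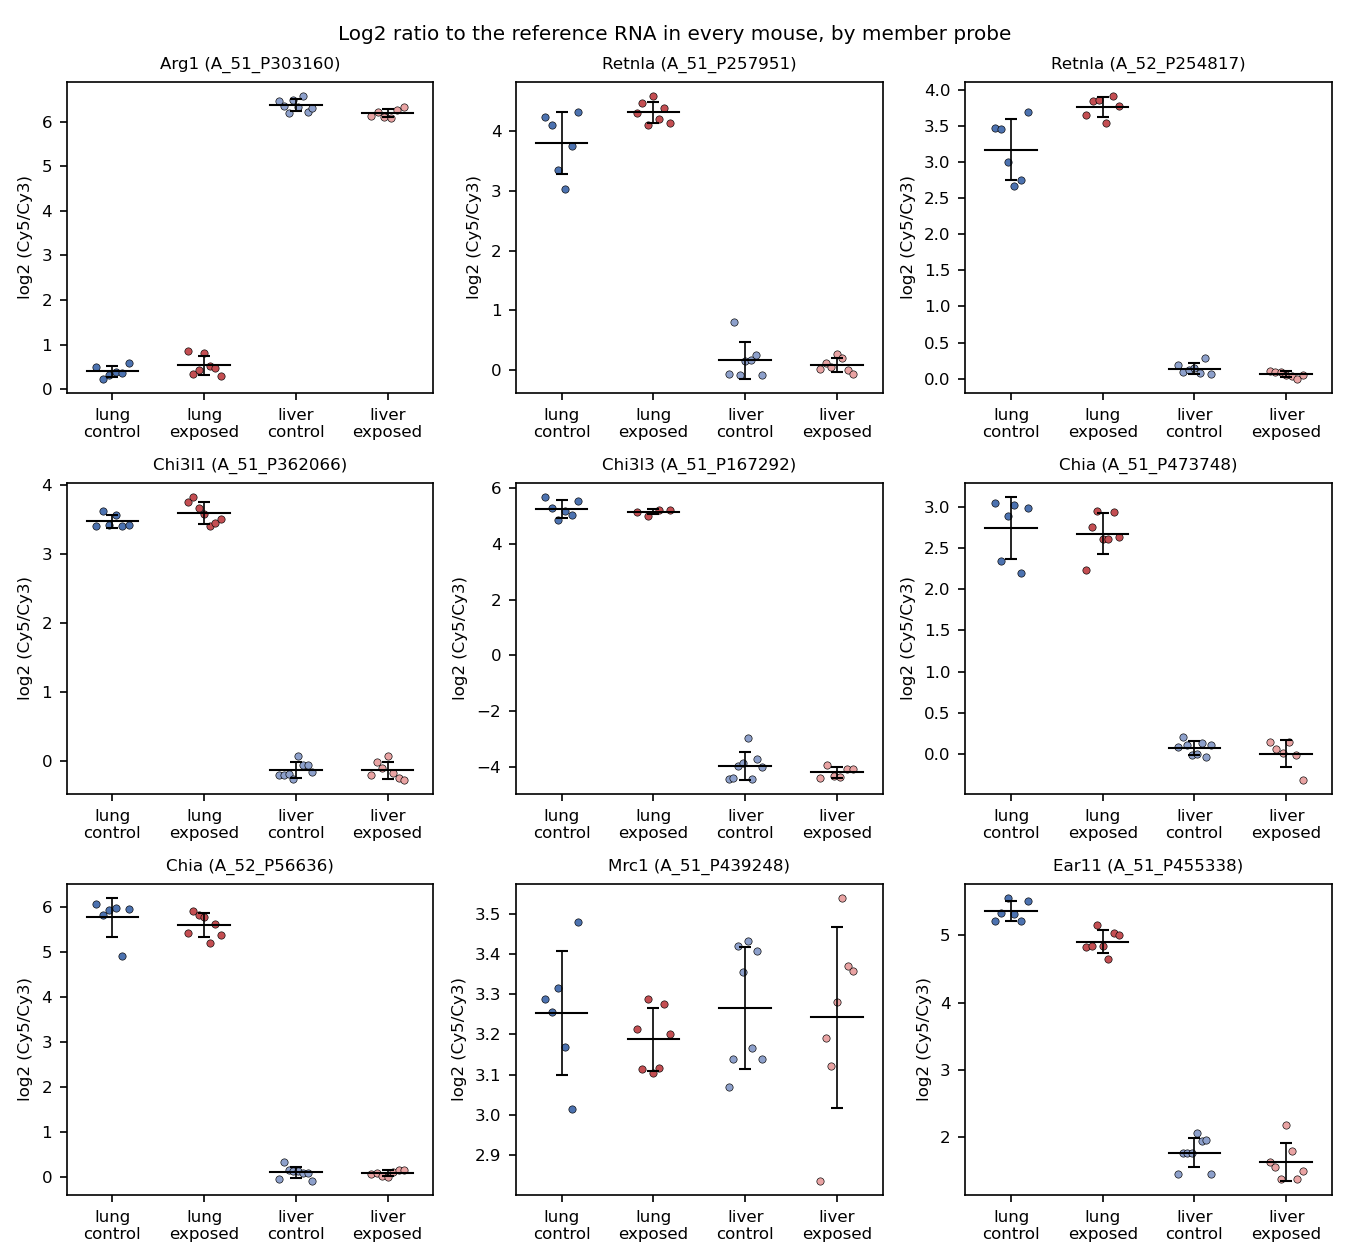
Log2 ratio of Cy5 to Cy3 (vertical axes) of each member probe in every mouse whose spot was not marked as an outlier, for control and exposed lung and liver; the horizontal lines are group means and the bars 1 SD. In the Ear11 panel all 7 exposed lungs lie below all 6 control lungs, while exposed and control mice overlap in the other lung panels.

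Chi3l1 encodes a secreted chitin-binding protein without enzyme activity (also called BRP-39). Its lung log2 ratio had a lowest, median and highest value of 3.41, 3.58 and 3.84 in exposed mice and 3.41, 3.43 and 3.63 in controls. The groups overlapped, and the difference was 0.12 with a 95% confidence interval of -0.03 to 0.27 (limma adjusted p = 0.755). In liver its ratio lay between -0.28 and 0.06 in exposed and between -0.26 and 0.07 in control mice, where the Cy5 signal was well above background on 1 of 7 and 1 of 8 arrays.

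The colours of the Chi3l1 spot were also read one at a time, and the reading of Cy5 alone was chosen after the data had been seen. In the Cy5 channel, which holds the mouse RNA, the lowest, median and highest log2 signals were 14.32, 14.69 and 14.96 in exposed lungs and 13.20, 13.35 and 13.69 in control lungs. All 7 exposed lungs were above all 6 control lungs. On the ratios, 137 of 41105 probes (0.333%) were higher in exposed lungs without overlap. That share was not counted for Cy5 alone, so how unusual the separation is in Cy5 cannot be said. The difference of 1.27 is 2.42-fold, with a 95% confidence interval of 1.07 to 1.48 and a limma adjusted p of 1.60e-05, and the two-sided exact permutation p of 0.000583 is the smallest that 7 against 6 arrays can give. Of all probes, 98 of 41105 (0.238%) were called in this channel and 80 (0.195%) in the upward direction. The exposed signal was higher by 1.43, 1.22 and 0.975 within the 3 slides that held both groups, by 1.21 with slide as a block (adjusted p = 0.000549), and by 1.22 to 1.34 when each lung was left out in turn, with the call kept in 13 of 13 refits.

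The Cy3 signal of the same spot, which should hold only the common reference, moved in the same direction. It lay between 10.73 and 11.43 on the arrays of exposed lungs and between 9.50 and 10.14 on those of control lungs. Its difference was 1.14 or 2.21-fold (limma adjusted p = 0.00112). Chi3l1 was 1 of 4 probes called in the Cy3 channel of the lung arrays (0.00973% of those tested), beside those of Lcn2, Ccl6 and Ly6f. On liver arrays, where the mouse RNA held little Chi3l1 signal, the Cy3 mean was 6.16 in controls against 9.81 on control lung arrays. Over the 13 lung arrays the Cy5 and Cy3 signals of Chi3l1 were correlated with r = 0.98, and with r = 0.83 after the group means were removed. Those points share array, labelling and scan, the source of the Cy3 signal was not tested, and the ratio and the Cy5 signal are therefore both given.

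**Figure D2:**
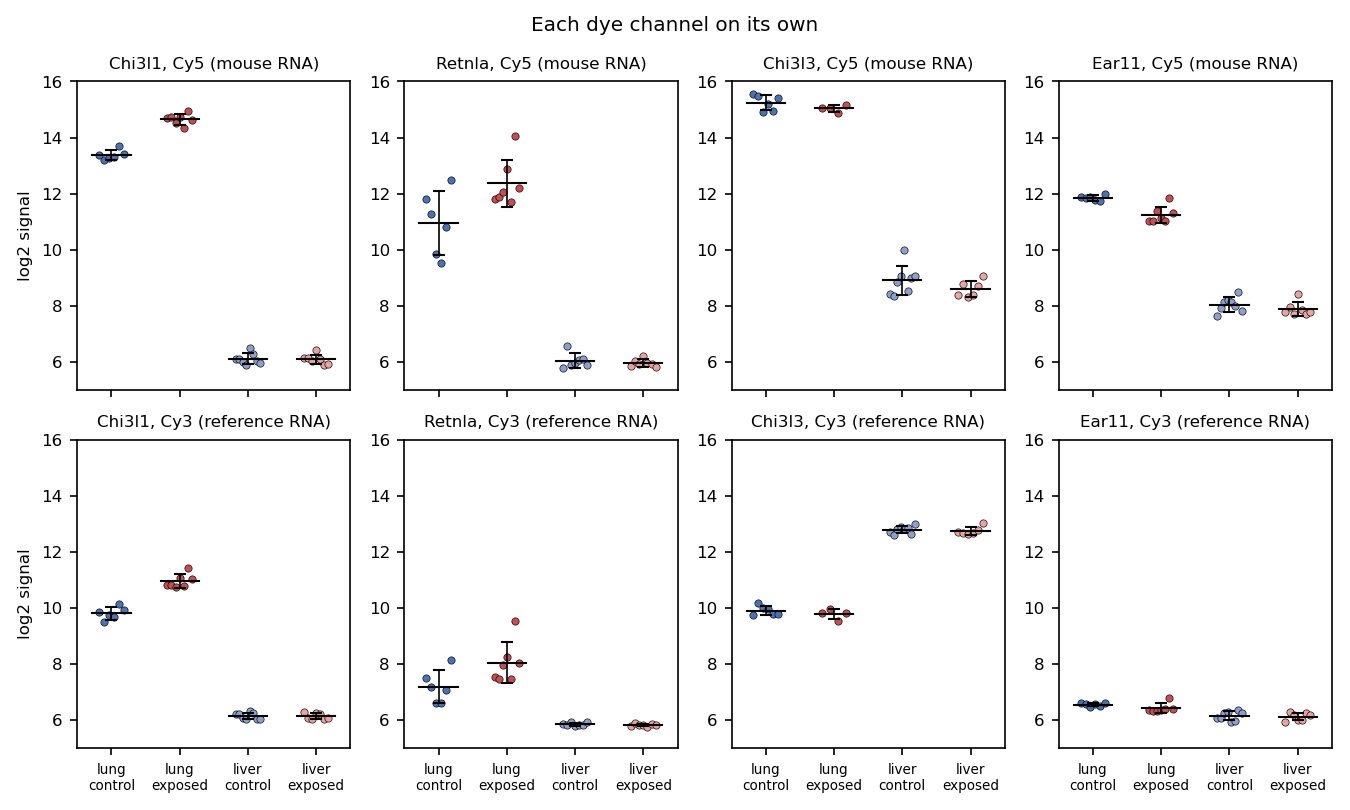
Log2 signal (vertical axes) of Chi3l1, Retnla, Chi3l3 and Ear11 in the Cy5 channel (mouse RNA, upper panels) and the Cy3 channel (reference RNA, lower panels), with a point for each array of control and exposed lung and liver whose spot was not marked as an outlier; lines are means and bars 1 SD. For Chi3l1 the exposed lung arrays lie at 10.73 to 11.43 on the Cy3 scale and the control lung arrays at 9.50 to 10.14, so both colours move together and the ratio changes little.

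Chi3l3 encodes Ym1, a chitinase-like lectin. The outlier marks took away 3 of the 7 exposed lungs, which left log2 ratios of 5.13, 5.00, 5.19 and 5.22 in exposed mice 1, 12, 19 and 23, against a lowest, median and highest value of 4.83, 5.22 and 5.68 in 6 controls. The exposed values fell inside the control range, with a difference of -0.11 (95% confidence interval -0.42 to 0.20, limma adjusted p = 0.899). The sign of this difference turned to 0.22 when the marked spots of mice 7, 13 and 20 were kept, and to 0.20 in the authors' table, so no direction was given by these arrays. The Cy5 signal of Chi3l3 in control lung was 81.0-fold that in control liver.

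Chia encodes acidic mammalian chitinase, which does cut chitin. Its probe A_52_P56636 had lung log2 ratios of 5.20, 5.61 and 5.90 (lowest, median and highest) in exposed and 4.90, 5.93 and 6.06 in control mice, and its probe A_51_P473748 had 2.23, 2.63 and 2.95 against 2.19, 2.94 and 3.04. Both sets of groups overlapped, and the differences were -0.18 (adjusted p = 0.851) and -0.07 (adjusted p = 0.946) in limma. The second of these probes lies over a stretch of the transcript in which Chia and its relative Chi3l4 (Ym2), on the same chromosome, are alike. Aligned without gaps, the probes of both genes overlap by 48 bases, of which the 31 in capitals are the same:
Chia A_51_P473748: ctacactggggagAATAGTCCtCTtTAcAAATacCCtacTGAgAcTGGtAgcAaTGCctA
Chi3l4 A_52_P428599: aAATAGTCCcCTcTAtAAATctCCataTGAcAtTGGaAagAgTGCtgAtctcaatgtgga
The longest unbroken run that they share is 8 bases, and the Chi3l4 log2 ratio was 0.44 higher in exposed lungs without passing the test (limma adjusted p = 0.694). Of the 5 further chitinase family genes tested in the lung none was called by limma, with a median difference of 0.01, and Chi3l4 was the 1 with an unadjusted p under 0.05.

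Retnla encodes RELM-alpha (FIZZ1), a secreted protein that STAT6 induces in macrophages and epithelium. Probe A_51_P257951 had a lowest, median and highest log2 ratio of 4.09, 4.30 and 4.59 in exposed lungs and 3.02, 3.93 and 4.32 in control lungs. Every one of 7 exposed lungs was above the control mean and 3 were above the highest control. The difference was 0.51, or 1.43-fold, with a 95% confidence interval of 0.12 to 0.91. It did not pass the test across all probes (limma adjusted p = 0.571), though the two-sided exact permutation p for this probe alone, unadjusted, was 0.0233. The other Retnla probe, A_52_P254817, shares 50 of its 60 bases and is no independent measure, and its difference was 0.59 (95% confidence interval 0.25 to 0.94, adjusted p = 0.316) in 6 exposed and 6 control lungs. These sizes depended on the background step: they were 0.0121 and 0.0536 with signals as Feature Extraction had processed them, and 0.14 and 0.33 with background modelled over all spots.

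In Cy5 alone the Retnla probes were 2.66-fold and 2.57-fold higher in exposed lungs, with adjusted p of 0.424 and 0.448 in limma. The spread was wide, from 9.54 to 12.48 in control and 11.71 to 14.06 in exposed lungs for A_51_P257951, so that only 2 exposed lungs exceeded every control. The difference was carried unevenly by the slides, at 0.31, 2.36 and 0.65 for this probe. Its Cy3 signal followed the Cy5 signal with r = 0.96 over 13 arrays, and was well above background on all 13 lung arrays and on none of the 15 liver arrays, and what this adds to the ratio was not tested. Fat is another known source of Retnla, and all 5 adipocyte markers tested had positive differences in the same lungs (median 0.61, none called), with mean levels of 2.26 to 4.68 in exposed and 1.72 to 3.75 in control lungs, and their part in the Retnla value was not tested. Since Retnla is the member best known as a STAT6 target, the 250 bases before its start are shown in GRCm38.p6 (RefSeq, plus strand), with the letters TTCNNNNGAA, the spacing that STAT6 prefers, in capitals:
Retnla chr16:48842359-48842608: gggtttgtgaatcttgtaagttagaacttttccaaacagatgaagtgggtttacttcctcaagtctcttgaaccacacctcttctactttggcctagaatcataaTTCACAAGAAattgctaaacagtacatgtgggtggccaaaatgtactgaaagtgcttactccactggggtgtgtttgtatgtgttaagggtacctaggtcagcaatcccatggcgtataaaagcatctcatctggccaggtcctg
The capitals begin 145 bases before the start. The pattern reads the same on both strands, and 1922 of 32841 RefSeq promoters of this window (5.85%) hold it. Promoters were matched for 6 of the 7 members, and that of Retnla was the 1 with the letters. The match is a description of sequence and no measurement of binding.

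Arg1 encodes arginase 1, which turns arginine into ornithine and urea and is both a marker of type 2 macrophages and a urea cycle enzyme of hepatocytes. Its array probe is:
Arg1 A_51_P303160: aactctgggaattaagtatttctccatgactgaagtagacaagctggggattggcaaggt
In the lung its log2 ratio had a lowest, median and highest value of 0.30, 0.47 and 0.86 in exposed and 0.23, 0.38 and 0.59 in control mice. The groups overlapped, with 2 exposed lungs above every control, and the difference was 0.14 (95% confidence interval -0.05 to 0.33, limma adjusted p = 0.788). Both colours were higher on the arrays of exposed lungs, Cy5 alone by 0.23 (limma adjusted p = 0.417) and Cy3 by 0.11 (adjusted p = 0.950). The Arg1 Cy3 signal was well above background on only 2 of 7 exposed and 0 of 6 control lung arrays. The 7 hepatocyte marker genes tested in the same lungs all had positive differences (median 0.62, none called), with mean levels of 0.43 to 2.26 in exposed and 0.29 to 0.77 in control lungs, and the part of such RNA in the Arg1 values was not tested. Its mitochondrial relative Arg2 rose by 0.48 in exposed lungs (limma adjusted p = 0.0168), the 1 called gene of 16 in arginine metabolism (median 0.08), with 6 exposed lungs above every control. That call was lost without control mouse 27 or control mouse 29 (adjusted p = 0.0542 and 0.0501). It was also lost in 4 of the 11 alternative settings, with 0.43 on the signals processed by Feature Extraction (adjusted p = 0.743), 0.52 with median centring (adjusted p = 1.00), 0.46 in the authors' table (adjusted p = 0.0569) and the opposite sign, -0.11, with background modelled over all spots (adjusted p = 0.934).

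Mrc1 encodes the mannose receptor (CD206), an endocytic lectin of macrophages and of liver sinusoidal endothelium. Its lung log2 ratios of 3.10, 3.20 and 3.29 (lowest, median and highest) in exposed mice lay inside the control range of 3.01 to 3.48. The difference was -0.07, with a 95% confidence interval of -0.20 to 0.07 (limma adjusted p = 0.858). This was one of the narrowest intervals among the members in the lung. None of the 3 other genes of the mannose receptor family was called by limma, nor had any an unadjusted p under 0.05.

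Ear11 (now Rnase2a) is one of the mouse ribonucleases named for eosinophils. Its probe lies at chr14:46589069-46589128 on the minus strand of mm7, the build in the lung file headers. The lowest, median and highest log2 ratios were 4.65, 4.85 and 5.15 in exposed lungs and 5.21, 5.32 and 5.56 in control lungs. Every exposed lung was below every control lung, as for 79 of 41105 probes (0.192%). The difference was -0.45 with an SE of 0.08 and a 95% confidence interval of -0.62 to -0.28 (limma adjusted p = 0.0310, two-sided exact permutation p = 0.00117 with 7 and 6 mice). It was -0.43, -0.29 and -0.62 within the 3 slides that held both groups. The call was lost without any 1 of exposed mice 1, 7, 13 and 23 or control mice 26, 27, 29 and 34, with differences of -0.47 to -0.41 and adjusted p of 0.0526 to 0.0804. It was also lost in the authors' table, with median centring, with background modelled over all spots and with signals as Feature Extraction had processed them (differences of -1.20 to -0.29, adjusted p of 0.0517 to 1.00). In Cy5 alone the difference was -0.60 (adjusted p = 0.0520), while the Cy3 signal differed by -0.12 and was not called. In bulk tissue, fewer cells of a type and less RNA per cell cannot be told apart.

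Among the other ribonucleases of the family Ear1 and Ear10 fell with exposure. Ear1 fell by 0.48 on the log2 scale (limma adjusted p = 0.000601), with 3.71, 3.88 and 3.97 as the lowest, median and highest log2 ratios in exposed and 4.20, 4.35 and 4.47 in control lungs, and no overlap. Ear10 fell by 0.37 (adjusted p = 0.0406), a call that was kept only when exposed mouse 20 or control mouse 32 was the one left out (2 of 13 refits). Ear3 at -0.35 and Ear6 at -0.29 did not pass the test. Ear5 and Ear14 were not well above background on any lung array. Of the 6 relatives tested 2 were called lower and none higher, beside 9 of 41105 probes (0.0219%) called lower over the whole array. The median of the 6 was -0.32. Ear5 and Ear14 enter this median and the counts of signs, though their values are background signal. Ear10 and Ear3 may not be separate measures, since their probes share 31 bases. The share of all probes with a negative difference was not counted. Counting Ear11, 6 of the 7 Ear genes had negative differences, against 3 of 7 with the scanner software's processed signals, where Ear10 turned to 0.0031. No Ear gene was called with those signals, with background modelled over all spots or with median centring.

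The probes decide how far these genes can be told apart. The Ear10 and Ear3 probes share a run of 31 bases, shown in capitals, and so may read each other's transcript. The Ear1 and Ear11 probes share no run longer than 5 bases. Probes were compared only with each other, so whether either also binds the other gene's transcript was not tested. The sequences of the Ear10, Ear3 and Ear1 probes are:
Ear10 A_51_P268535: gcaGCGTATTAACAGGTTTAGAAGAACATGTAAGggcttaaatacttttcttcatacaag
Ear3 A_52_P565507: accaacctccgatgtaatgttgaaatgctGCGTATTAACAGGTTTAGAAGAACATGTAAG
Ear1 A_52_P412585: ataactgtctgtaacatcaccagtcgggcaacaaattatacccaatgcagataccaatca
The promoters of Ear11 and Ear1 are close relatives, as the genes are. Over 208 aligned bases 86.1% were identical, and the longest run common to both is in capitals (RefSeq, GRCm38.p6, minus strand, 250 bases before each start):
Ear11 chr14:51256113-51256362: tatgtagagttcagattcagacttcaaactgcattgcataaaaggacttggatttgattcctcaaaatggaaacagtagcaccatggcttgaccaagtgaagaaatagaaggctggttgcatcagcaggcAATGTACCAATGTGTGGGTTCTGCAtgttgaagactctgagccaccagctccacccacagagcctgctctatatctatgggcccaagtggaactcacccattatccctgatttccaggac
Ear1 chr14:43819640-43819889: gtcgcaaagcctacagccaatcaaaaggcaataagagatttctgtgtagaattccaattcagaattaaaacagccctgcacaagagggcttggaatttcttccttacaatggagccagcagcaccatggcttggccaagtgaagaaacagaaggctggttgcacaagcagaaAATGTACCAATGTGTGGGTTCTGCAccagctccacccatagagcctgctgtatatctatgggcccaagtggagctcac
The run of 25 bases begins 120 bases before the Ear11 start and 78 bases before that of Ear1.

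Genes of macrophages moved in both directions beside Ear11. Siglecf, a sialic acid-binding receptor found on alveolar macrophages and eosinophils, fell by 0.70 (limma adjusted p = 0.0105), and Marco, a scavenger receptor of alveolar macrophages, rose by 0.57 (adjusted p = 0.00920). Of the 5 alveolar macrophage markers tested these 2 were called, and the list's median was -0.02. Its mean level was 2.77 to 3.16 in exposed and 2.91 to 3.14 in control lungs. Among 7 general macrophage markers the scavenger receptor Msr1 rose by 0.52 (adjusted p = 0.0200, lost without exposed mouse 23 or control mice 24 and 32), and the list's median was 0.19, with mean levels of 0.41 to 1.37 in exposed and 0.25 to 1.10 in control lungs. Of 5 eosinophil markers none was called, their differences lay between -0.02 and 0.07, and 0 of the 5 were well above background on all lung arrays, with 1 of them on none. Of 11 alternative settings, the calls of Siglecf, Marco and Msr1 were kept in 8, 6 and 7, and that of Ear1 in 8. The part of any of these cell types in the Ear11 value was not tested.

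**Figure D3:**
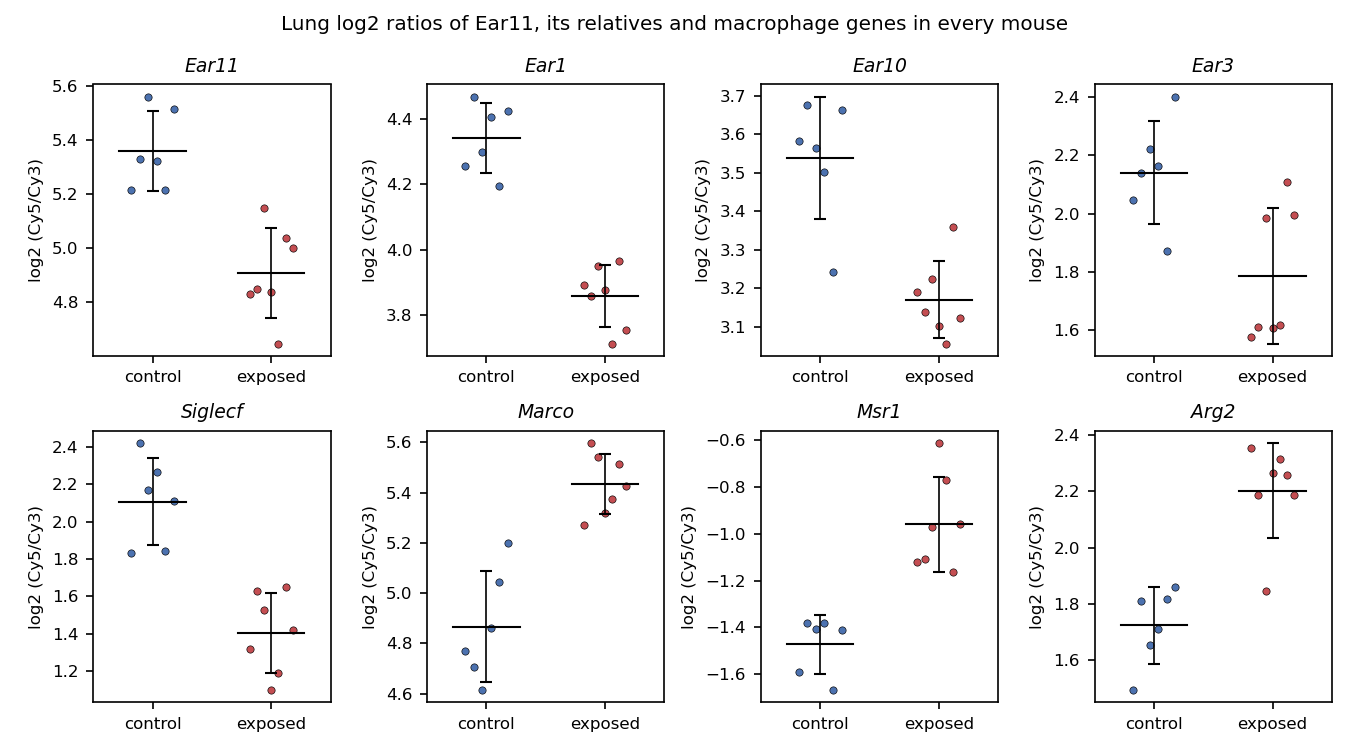
Lung log2 ratios (vertical axes) of Ear11, its relatives Ear1, Ear10 and Ear3, the macrophage genes Siglecf, Marco and Msr1, and the arginase gene Arg2 in each of 6 control and 7 exposed mice; lines are means and bars 1 SD. Ear11, Ear1 and Siglecf are lower and Marco and Msr1 higher in every exposed lung than in every control lung. Of 41105 probes, 79 (0.192%) were lower and 137 (0.333%) higher without overlap.

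The wider type 2 programme was tested through lists. None of 15 genes of the IL-4 and IL-13 axis was called by limma in the lung (median 0.02, 2 at an unadjusted p under 0.05). The receptor chain Il4ra and Stat6 itself differed by 0.001 and 0.02. Of these 15 genes, 10 were well above background on all lung arrays and 2 on none. Il13 was so on 3 of 13 lung arrays and Il5 on 1, so a change in such dim genes could hardly be seen. Of 17 other type 2 macrophage genes the chemokine Ccl17, which draws cells bearing CCR4, rose by 0.89 or 1.86-fold (limma adjusted p = 0.0207), and 16 were not called, with a median of 0.07. Ccl17 was above every control in 6 of 7 exposed lungs, and its call was lost without exposed mouse 1 or 13 or control mouse 27 (adjusted p of 0.0501 to 0.0628). Among the 11 alternative settings it was lost with background modelled over all spots (0.47, adjusted p = 0.646) and with median centring (0.95, adjusted p = 1.00). None of 13 genes of classical macrophage activation was called, and 9 of them were well above background on all lung arrays and 1 on none. Their median was 0.12, and 5 had an unadjusted p under 0.05. The largest differences among those 5 were those of the chemokine Cxcl9 at 0.65, the cytokine Tnf at 0.26 and the transcription factor Irf5 at 0.24.

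In the liver no member was called by limma, and none of the 41076 probes was (0%), with 1033 (2.51%) at an unadjusted p under 0.05. Arg1 was the 1 member probe with an unadjusted p under 0.05. Its log2 ratio had a lowest, median and highest value of 6.09, 6.17 and 6.33 in 6 exposed and 6.20, 6.35 and 6.58 in 8 control livers. The groups overlapped, with 3 exposed livers below every control, and the difference was -0.18 (95% confidence interval -0.32 to -0.04, limma adjusted p = 0.9999, two-sided exact permutation p = 0.0190 unadjusted). In Cy5 alone it was -0.02, while the Cy3 signal differed by 0.12. Ear11 ran from 1.38 to 2.17 in exposed and from 1.45 to 2.05 in control livers, with a difference of -0.14 (95% confidence interval -0.39 to 0.11). The member differences in the liver lay between -0.22 for Chi3l3 and -0.005 for Chi3l1, all short of the test. Retnla A_51_P257951, Chi3l1 and Chia A_52_P56636 were well above background on only 1, 2 and 10 of 15 liver arrays, and with background modelled over all spots the differences of Arg1, Chia A_52_P56636, Mrc1 and Ear11 were positive, so no direction is read from their signs.

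The effect of exposure in lung was set against that in liver by an interaction term. No member passed it on the ratios in limma, where 58 of 41017 probes (0.141%) did, and 3 member probes, those of Arg1 and Retnla, had an unadjusted p under 0.05 beside 1755 (4.28%) of all. Both Retnla probes are in that count, though they overlap in sequence and are no independent measures. The effect on Ear11 was -0.45 in lung and -0.14 in liver, and their difference of -0.31 (95% confidence interval -0.63 to 0.001, limma adjusted p = 0.9999) does not show that the organs differed. That of Retnla A_52_P254817 was 0.67 (adjusted p = 0.173). In Cy5 alone the effect on Chi3l1 was 1.29 larger in lung than in liver (adjusted p = 3.66e-06), but its Cy5 signal was well above background on only 2 of 15 liver arrays, so a change there could hardly be seen and the value mostly repeats that of lung. Among the genes beside the members, Siglecf, Ccl17 and Arg2 passed the same test on the ratios, at -0.75, 0.84 and 0.50. Siglecf and Arg2 were well above background on 0 of 15 liver arrays, so their values do not show that the organs responded differently, while Ccl17 was so on 13 of 15.

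**Figure D4:**
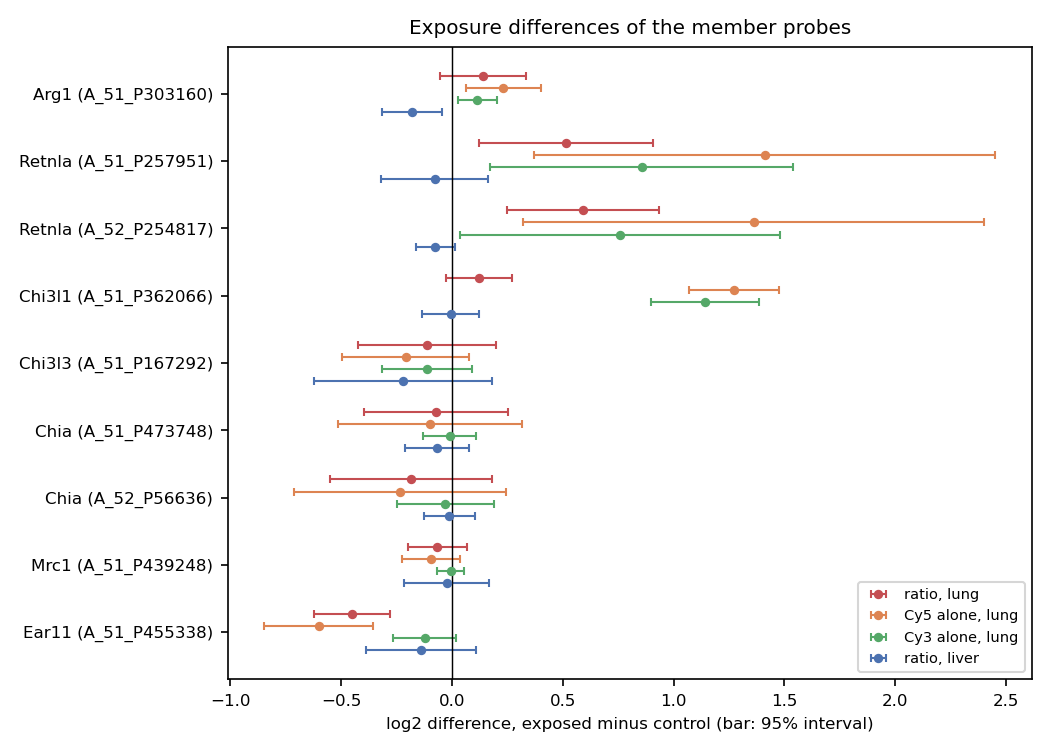
Log2 difference of exposed minus control (horizontal axis) for each member probe, as the ratio in lung (red) and liver (blue) and as the Cy5 and Cy3 signals alone in lung (orange and green), each with its 95% confidence interval; the vertical line marks no difference. Among the ratios, the intervals of Ear11 in lung at -0.45, both Retnla probes in lung at 0.51 and 0.59 and Arg1 in liver at -0.18 lie clear of 0, and only Ear11 in lung passed the test across all probes, while the Chi3l1 signals alone lie far to the right of their ratio.

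Between organs of control mice the members differed far more than between exposed and control mice. Of the 9 probes 8 were called, 7 of them higher in lung, beside 24440 of 41017 probes (59.6%) and 12285 (30%) in that direction. Arg1 was the member with the opposite direction, with a log2 ratio of 0.40 ± 0.13 (SD, n = 6) in lung and 6.37 ± 0.14 (SD, n = 8) in liver. Its Cy5 signal was 262-fold higher in liver. The Cy5 signal of Ear11 was 13.9-fold higher in lung and was well above background on all 8 control livers. The signals as read gave 155-fold for Chi3l1 and 30.0-fold and 18.5-fold for the Retnla probes, but these were well above background on only 1 of 8 control livers, so the liver side is mostly background signal and the folds are not measured ratios of RNA. Chia A_52_P56636, well above background on 5 of 8, was 69.4-fold higher as read, and Chia A_51_P473748, not well above background on any of 8 control livers, at least 8.20-fold higher, the bound being the lowest signal well above background on each array or the probe's own, whichever was higher.

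Mrc1 was the member without a call between organs. Its log2 ratio was 3.25 ± 0.15 (SD, n = 6) in lung and 3.27 ± 0.15 (SD, n = 8) in liver, a difference of -0.01 with a 95% confidence interval of -0.18 to 0.16 (limma adjusted p = 0.911). Without background correction it was -0.27 (adjusted p = 0.0189) and in the authors' table -0.38 (adjusted p = 0.00180), both lower in lung and called. The Cy3 signal of Mrc1 was not well above background on any lung array. The Cy3 signal also depended on tissue for other members, although the reference RNA was the same: it was 9.91 in control lung and 12.80 in control liver arrays for Chi3l3, and 5.97 and 8.07 for Arg1. Because of this the folds between organs are given from Cy5, and by the ratio they were 12.3 for Chi3l1, 590 for Chi3l3 and 62.7 for Arg1.

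Within the lung the members did not vary as 1 group from mouse to mouse. Over 13 arrays the log2 ratio of Ear11 was most like those of Crlf3 (r = 0.90) and Ear3 (r = 0.90) out of 16249 candidate probes, followed within the family by Ear1 (r = 0.89) and Ear10 (r = 0.87). With group means removed the last values were 0.53 and 0.56, and 0.83 for Ear3. Siglecf was correlated with Ear11 at 0.87, or 0.54 with group means removed. The ratio of Retnla was most like those of 1110004B13Rik (r = 0.93) and Blzf1 (r = 0.92), and that of Chi3l1 like those of Lphn1 (r = 0.88) and Rab15 (r = 0.87). For Arg1 the nearest were Tspan11 (r = 0.90) and Plekhb2 (r = 0.86), and for Mrc1 Zfp72 (r = 0.84) and Ttll3 (r = 0.81). Chia was nearest to Hist1h1d (r = 0.85) and Ahcyl1 (r = 0.84), and Chi3l3, over 10 arrays, to 6530404N21Rik (r = 0.93) and 4930453N24Rik (r = 0.90). Such partners are the highest of 16249 candidates over few arrays. How high r would run among unrelated genes was not tested, so they are not shown to be expressed together. Among members, Retnla A_51_P257951 was correlated with Ear11 at -0.57 and, with group means removed, at -0.16. With Chi3l3 the values were 0.51 and 0.71 over 10 arrays. The other Retnla probe gave -0.52 and 0.33 with Ear11 over 12 arrays, so the sign within groups depended on the probe. With group means removed, Mrc1 and Ear11 were correlated at 0.69, and Chi3l1 and Retnla A_51_P257951 at -0.03. These correlations share arrays and the reference channel, and are given as descriptions.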

How the data were processed

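Total RNA from each mouse was labelled with Cy5 and hybridized with Cy3-labelled universal mouse reference RNA on Agilent arrays, without dye swaps. Per the file headers, the deposited intensity values, median spot and local background signals, came from Feature Extraction 9.5.3.1 for lung and 10.1.1.1 for liver. The deposited log2 ratios of the authors' table were LOWESS-normalized and served as an alternative. The 13 miRNA arrays were not used. Liver spots were named through the probes of the lung files, and array gene names are old.

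Here control and marked spots were left out, background was corrected by normexp (offset 50) and ratios were normalized by loess within arrays in limma 3.58.1 under R 4.3.3. Groups were compared with lmFit and eBayes over 41105 lung and 41076 liver probes, with Benjamini-Hochberg adjusted p under 0.05 as the call. The study's methods used MAANOVA, which limma replaced. Exact permutation tests over arrays served for single probes. Cy3 alone was scaled between arrays by quantiles. Cy5 alone was rebuilt from the loess-normalized ratio and the mean log2 signal of both colours, that mean being scaled between arrays by quantiles. Scaling the Cy5 signal itself by quantiles, without loess, was a separate alternative. A gene with several probes was described by the one of highest mean signal. The fits were tested on simulated data with known changes. The number of arrays limits the precision, and 1 array stands for 1 mouse.

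Lung and liver arrays with the same number in their titles were taken as the same mouse (12 mice). Their deviations from the group means were correlated between -0.07 and 0.22, over 0.1 in 4 of 12 pairs.

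Members and gene lists were chosen with earlier results of these data known. Genes beside the members were named where called, or where among the 3 largest lung differences of a list at an unadjusted p under 0.05, and likeness partners were the 2 genes of highest correlation. Promoters came from RefSeq (GRCm38.p6), and motifs were searched on both strands. Alternatives covered background correction, normalization, dim probes, slide as a block, pairing and each array left out in turn. Keeping marked spots and reading Cy5 alone were added after seeing the data.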

Additional observations from a re-analysis of the deposited data

Results flagged for a closer look

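Of 36 groups of member values examined, 3 held a value far from the rest of its group by Dixon's test, which chance alone gives in about 1 in 20 groups. The Retnla A_51_P257951 log2 ratio of control liver 27 was 0.80, and the next highest was 0.25. The Chia A_51_P473748 log2 ratio of exposed liver 23 was -0.32, and the next lowest was -0.01. The Chia A_52_P56636 log2 ratio of control lung 32 was 4.90, and the next lowest was 5.81. In 1 further case the interaction term passed its test: for Chi3l1 in Cy5 alone the lung effect exceeded the liver effect by 1.29 on the log2 scale (limma interaction, adjusted p = 3.66e-06), an effect that the ratio did not show (0.13, adjusted p = 0.9999). That probe's Cy5 signal was well above background on only 2 of 15 liver arrays and Cy5 alone was read after the data had been seen, so the value mostly repeats the lung difference and does not show that the organs responded differently.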

How the results depend on the processing

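In the lung 0 members were called with normexp fitted over all spots, with the scanner software's processed signals, with median centring or in the authors' table, against 1 under 5 other alternatives, 1 for Cy5 alone (Chi3l1 in place of Ear11) and 2 for Cy5 after quantile normalization (Chi3l1 higher and Ear11 lower). The Ear11 difference stayed negative in all 11 alternatives, from -1.20 to -0.29, and its adjusted p in limma ran from 0.0133 to 1.00. Leaving out each lung gave 0 to 1 members and 64 to 82 called probes. Over all probes the lung calls fell from 83 to 14 (normexp over all spots) or 4 (median centring) and rose to 133 with slide as a random block. For the interaction, called probes fell from 58 to 6, 34 and 12 with normexp over all spots, processed signals and median centring, and called members rose to 1 in either reading of Cy5. The 2 fits with the replicate block, paired by mouse, called 49 and 64 probes and 0 members, and the block changed no member's call in this comparison or between organs. The causes were not tested.

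Some differences that did not pass the test changed sign. With normexp over all spots these were lung Arg1 (-0.0057), liver Arg1 (0.30), liver Chia A_52_P56636 (0.0281), liver Mrc1 (0.77), liver Ear11 (0.30), the interaction of Arg1 (-0.31), Mrc1 between organs (0.56) and, though called in the main setting, lung Arg2 (-0.11). With processed signals they were lung Arg1 (-0.26), lung Ear10 (0.0031, called in the main setting), liver Retnla (0.33 and 0.0611), liver Chia A_52_P56636 (0.0746), liver Mrc1 (0.0377) and the interactions of Arg1 (-0.0914), Retnla (-0.31 and -0.0076) and Chia A_51_P473748 (0.23). With median centring they were lung Chia A_51_P473748 (0.0107), lung Mrc1 (0.0079), liver Arg1 (0.0016), liver Mrc1 (0.0645), the interaction of Chia A_51_P473748 (0.11) and Mrc1 between organs (0.0479). Liver Chia A_52_P56636 turned without background correction (0.0483) and in the authors' table (0.0498), as did liver Mrc1 (0.0078) and lung Chi3l3 (0.20) in that table. Lung Chi3l3 was 0.22 with marked spots kept, and the interaction of Chia A_51_P473748 was 0.0151 with the replicate block. With 1 array left out, lung Chia A_51_P473748 ran from -0.18 to 0.0023, and in liver Retnla A_51_P257951 ran from -0.12 to 0.0284, Chi3l1 from -0.0389 to 0.0249, Chia A_52_P56636 from -0.0379 to 0.0209 and Mrc1 from -0.0733 to 0.0442.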

Other observations

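Beyond the called genes, several list genes had their exposed lungs mostly above the controls without passing the test across all probes. In arginine metabolism these were Nags, which makes the activator of the urea cycle (0.28 on the log2 scale, limma adjusted p = 0.437), and Gatm, which makes the creatine precursor (0.23, adjusted p = 0.621), each above every control in 5 of 7 exposed lungs. The share of all probes with that many was not counted. The mean log2 ratio of Nags was 6.33 in control liver and 0.32 in control lung, and the part of hepatocyte RNA in its lung values was not tested. Among type 2 macrophage genes they were Cd163, a haemoglobin scavenger receptor (0.29), the lectin Mgl2 (0.27) and the IL-1 receptor antagonist Il1rn (0.27), with adjusted p of 0.183 to 0.700. Of general macrophage markers, Cd68 was higher by 0.36 (adjusted p = 0.0994) and Emr1 by 0.29 (adjusted p = 0.439). In the IL-4 and IL-13 axis Il2rg, the common gamma chain, was higher by 0.20 and the kinase Jak1 lower by 0.18, neither called. Abcg1, a cholesterol exporter of alveolar macrophages, was 0.29 lower (adjusted p = 0.609).

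Other markers in the same lungs showed no call. The neutrophil gene Cd177 differed by 0.37 while the median of 8 neutrophil markers was -0.07. The adipocyte gene Cfd differed by 1.09 and the hepatocyte genes Cyp2e1 and Ahsg by 1.10 and 0.88, with 2 to 3 exposed lungs above every control. The surfactant gene Sftpc differed by -0.20. In the liver all 4 Kupffer cell markers had negative differences (median -0.22), none called.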
